A study of Mus musculus with 12 samples.

Results

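The ventral and the dorsal hippocampus of control mice were compared by RNA sequencing of 3′ ends, a method that counts short reads from the tail end of messenger RNAs. The samples were chosen by their labels alone, as all those of the control genotype: 3 of dorsal hippocampus (numbered 41, 49 and 71) and 3 of ventral hippocampus (41, 49 and 50), 6 of the 12 samples in the series. The controls were adult mice homozygous for a floxed Tet3 allele and without a Cre recombinase, so both regions carry the floxed allele. The floxed line was on C57BL/6N and the Cre line of the crosses on B6;129S6. The other 6 samples, 3 of each region, came from Tet3 cKO mice, which have the same floxed alleles and a tamoxifen-inducible Cre driven by the Camk2a promoter, active in excitatory forebrain neurons. Tamoxifen is described for the induction of the deletion (50 mg/kg, 2 injections a day for 5 days, a break of 7 days and 5 more days, from 6 weeks of age); whether controls received it is not stated. Both regions were macrodissected, so each sample holds all the cell types of its piece of tissue.

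The hippocampus runs along a long axis whose poles have different wiring. The dorsal part is known for spatial memory, and the ventral part, which is connected with the amygdala and hypothalamus, for emotional behaviour and stress responses. Pyramidal and granule neurons along this axis carry graded sets of transcription factors, receptors and adhesion molecules, and the fibre tracts that border the tissue are rich in myelinating oligodendrocytes.

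Total counts were 8.98 to 9.3 M in the dorsal and 7.08 to 15.9 M in the ventral controls. The first principal component held 43.2% of the variance and separated the regions, with dorsal samples at -32 to -13.5 and ventral samples at 20.2 to 30.9. Dorsal 49 lay nearest the ventral samples. The same sample stood apart for genes of the choroid plexus, the epithelium of the ventricles that secretes cerebrospinal fluid and abuts the hippocampus. Summed over the 17 genes of the choroid plexus list, its level was 5071 CPM (counts relative to library size, scaled by TMM), against 457 and 284 in dorsal 41 and 71 and 3376 to 4709 in the ventral samples. Ttr, the thyroid hormone carrier transthyretin and the most abundant of these genes, was at 157, 3363 and 41.1 CPM in dorsal 41, 49 and 71 and at 2931, 3355 and 2351 CPM in ventral 41, 49 and 50. Choroid plexus markers therefore moved with region in all control samples but dorsal 49, and their part in the differences below was not tested. In the cKO samples Ttr did not follow region. It was at 97.98, 67.15 and 1935 CPM in dorsal cKO 40, 43 and 64 and at 59.45, 1875 and 40.85 CPM in ventral cKO 40, 63 and 64. Without dorsal 49, all 16 tested choroid genes were called higher in ventral tissue; with it, edgeR called none, 3 were at an unadjusted p under 0.05, DESeq2 called 0 and limma voom 7.

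Of 15701 genes tested, 1010 (6.43%) differed between the regions at an adjusted p under 0.05 (edgeR quasi-likelihood test, Benjamini-Hochberg). Ventral levels were higher for 451 (2.87%) and dorsal levels for 559 (3.56%). A difference of at least 2-fold was called for 118 genes toward ventral (0.752%) and 200 toward dorsal tissue (1.27%). All 1010 called genes had groups that did not overlap, as did 26.1% of all tested genes. Taking samples 41 and 49 as pairs from the same mice, with the number as a fixed block, left 262 ventral and 406 dorsal calls. Of these, 240 and 342 were among the calls above. The region contrast of this fit rested on those pairs alone, because a sample without a partner was absorbed by its own block. Calls lost with this replicate block therefore do not separate pairing from the loss of the unpaired samples. The number of ventral calls was 202 without dorsal 41 and 197 without dorsal 71, and of dorsal calls 299 and 284; at least 2-fold ventral calls were 203 without dorsal 49. In bulk tissue, fewer cells of a type and less RNA per cell cannot be told apart. The counts of each region come from a table of its own, so region and table cannot be told apart either.

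**Figure D1:**
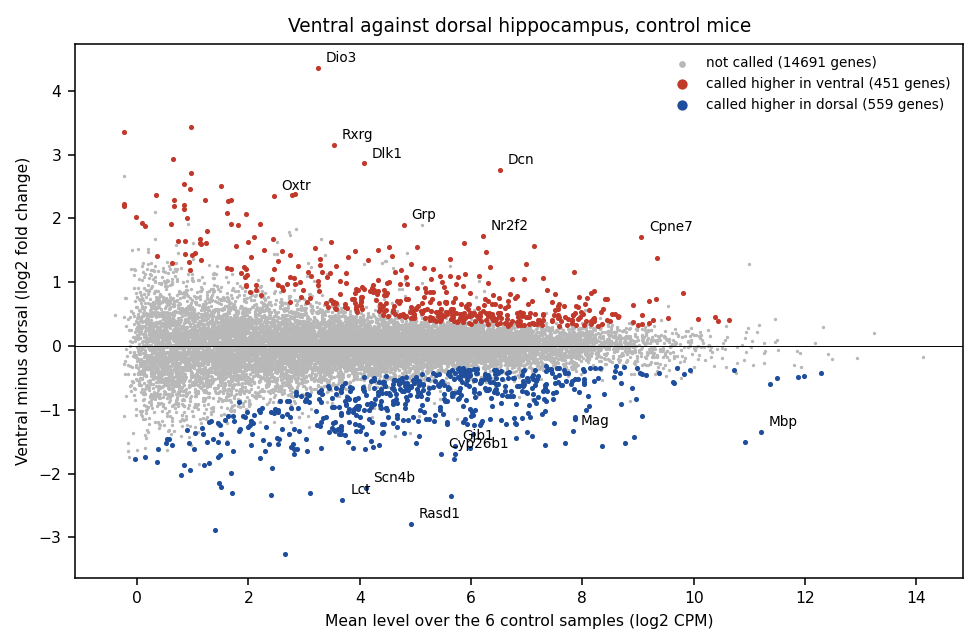
Log2 fold change of ventral over dorsal control hippocampus (vertical axis) against the mean level over the 6 samples in log2 CPM (horizontal axis), 1 point per gene tested. The 451 genes called higher in ventral tissue (red) reach a log2 fold change of 4.35 at Dio3, and Mbp and Mag lie among the 559 called higher in dorsal tissue (blue).

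Genes on a list of ventral pole markers were mostly higher in ventral tissue. This and the other lists used here were chosen with earlier results of these data known, so their counts are a description and not a test. Of 14 tested genes on the ventral pole list, 11 (78.6%) were called higher in ventral and none in dorsal tissue. Over all genes tested, 2.87% and 3.56% were called in those directions. The list's median log2 fold change was 1.56 (all genes tested, 0.01). The groups did not overlap for 11 of the 14, against 13.3% of all tested genes that were without overlap and higher in ventral tissue. Dio3, the deiodinase that inactivates thyroid hormone (chr12:110279068-110281097, plus strand, GRCm38), was at 1.25, 0.648 and 0.771 CPM in dorsal 41, 49 and 71 and at 22.6, 13.6 and 18.2 CPM in ventral 41, 49 and 50. Every ventral sample was above every dorsal sample, with a log2 fold change of 4.35 ± 0.29 (SE; edgeR adjusted p = 1.95e-05). Cpne7, a calcium-dependent phospholipid-binding copine, was at 240, 226 and 283 CPM in the dorsal and 724, 948 and 776 CPM in the ventral samples, a log2 fold change of 1.71 ± 0.12 (edgeR adjusted p = 1.95e-05). Nr2f2, the nuclear receptor COUP-TFII (chr7:70351944-70366735, minus strand), was at 29.4, 37.7 and 36.2 CPM in the dorsal and 137, 106 and 96.7 CPM in the ventral samples. Its log2 fold change was 1.72 ± 0.14 (edgeR adjusted p = 4.49e-05). Grp, the gastrin-releasing peptide, had a mean of 11.8 ± 2.85 CPM (SD, n = 3) in the dorsal and 43.7 ± 2.95 CPM in the ventral samples, a log2 fold change of 1.89 ± 0.17 (edgeR adjusted p = 6.21e-05). Exons of Cpne7 and Nr2f2 overlap those of another annotated gene, and whether counting used strand is not known from the sources used here. Reads of these neighbours could be counted with them. Nr2f2 overlaps a gene on the other strand. The list had 7 ventral calls without dorsal 41.

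Of the 8 tested genes on the dorsal pole list, 1 was called higher in dorsal tissue. This was Lct, lactase (chr1:128284756-128328318, minus strand), at 23.4, 16.2 and 25 CPM in the dorsal and 2.4, 4.76 and 5.64 CPM in the ventral samples. Its log2 fold change was -2.42 ± 0.28 (edgeR adjusted p = 0.000366), with no overlap. Fibcd1 and Nov, which are on the same list, were called higher in ventral tissue, with log2 fold changes of 0.71 and 0.94 (edgeR adjusted p = 0.00289 and 0.00594). Nov encodes the matricellular protein CCN3, and Fibcd1 an acetyl-group-binding membrane receptor. The list's median was -0.06, and 37.5% of it was called in either direction, against 6.43% of all genes tested.

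**Figure D2:**
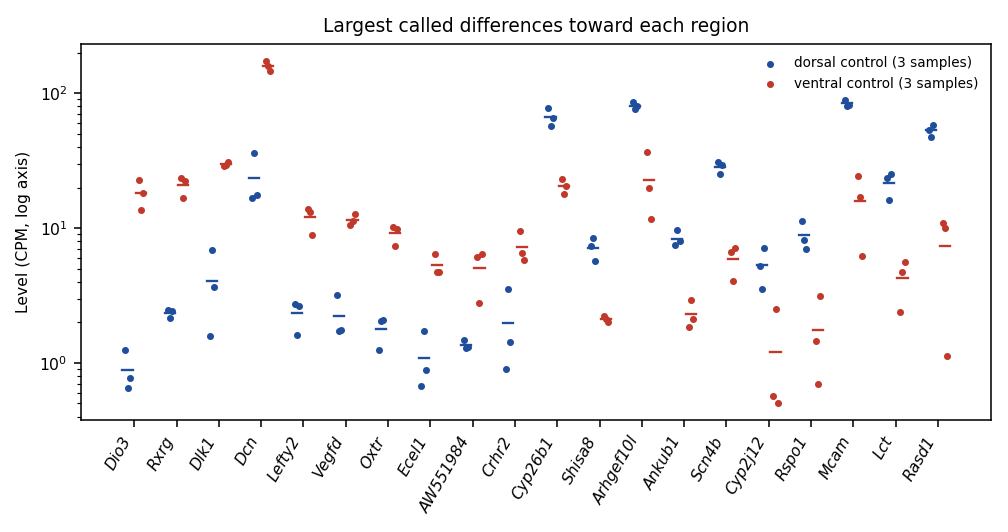
Level of the 20 genes with the largest called differences (10 per direction) in each control sample, in CPM on a log axis; dots are the 3 dorsal (blue) and 3 ventral (red) samples and bars their means. The groups do not overlap for any of the 20, and Dcn shows 1 dorsal sample, number 49, at 36.1 CPM against 16.8 and 17.6 CPM.

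The largest ventral differences included the retinoid receptor gene Rxrg, the imprinted gene Dlk1 and the extracellular proteoglycan decorin (Dcn). Dcn was at 16.8, 36.1 and 17.6 CPM in the dorsal and 174, 159 and 146 CPM in the ventral samples, a log2 fold change of 2.76 ± 0.23 (edgeR adjusted p = 4.52e-05). Dcn is also on the list of meningeal fibroblast markers, of which it was the only 1 of 14 tested called. This was 7.14% of the list, close to the 6.43% called over all genes tested, and the list's median was -0.15. That list had 3 ventral calls and a median of 0.11 without dorsal 49, a median of 0.11 without ventral 41, and 2 calls with limma voom and with the replicate block. Lefty2, an inhibitor of Nodal signalling, and Vegfd, a vascular growth factor, were higher in ventral tissue by 2.37 on the log2 scale in each case (SE 0.26 and 0.25). Ecel1, an endothelin-converting enzyme-like protein, was higher by 2.28 ± 0.34. AW551984 was higher by 1.92 ± 0.34. Crhr2, a receptor for corticotropin-releasing hormone peptides, was higher by 1.90 ± 0.39 (edgeR adjusted p = 0.0123). Its call was lost without dorsal 41 (adjusted p = 0.0529), dorsal 71 (0.0791) or ventral 41 (0.0574). Without dorsal 49, its fold change was 2.64 and that of Dlk1 3.48 on the log2 scale.

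Thyroid hormone and retinoid genes held calls in both directions, 5 ventral and 2 dorsal of 20 tested (median 0.15). The called share was 35%, against 6.43% of all genes tested. Rxrg, retinoid X receptor gamma (chr1:167598384-167639623, plus strand), was at 2.49, 2.16 and 2.42 CPM in the dorsal and 23.6, 16.7 and 22.2 CPM in the ventral samples. The difference was 3.14 ± 0.20 on the log2 scale (edgeR adjusted p = 1.95e-05). Crym, a thyroid hormone-binding crystallin, was higher in ventral tissue, at 320 ± 42.3 CPM (SD, n = 3) against 143 ± 16 CPM. Cyp26b1, which degrades retinoic acid, was higher in dorsal tissue, at 78.2, 57.2 and 66.0 CPM against 23.1, 17.9 and 20.4 CPM, a log2 fold change of -1.70 ± 0.14 (edgeR adjusted p = 4.49e-05). Aldh1a1, which makes retinoic acid, was also higher in dorsal tissue, by 1.12 ± 0.14 in size (log2 fold change -1.12, edgeR adjusted p = 0.000621). Thra, which encodes thyroid hormone receptor alpha, had a log2 fold change of 0.46, and its call was lost without any single one of 5 samples (adjusted p of 0.0577 to 0.104). Its exons overlap those of Nr1d1. The list had 3 ventral calls when dorsal 41, dorsal 71, ventral 41 or ventral 50 was left out, and it had 4 dorsal calls without ventral 41.

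The bases upstream of the annotated starts of 3 genes described above are shown, because Rxrg and Nr2f2 are nuclear receptors called higher in ventral tissue and Lct is a gene called higher in dorsal tissue. Sequences are from RefSeq (GRCm38.p6), 250 bases ending at the base before the start, 5′ to 3′ on the gene's strand. Capitals mark AGGTCA or its reverse complement TGACCT, a half-site bound by many nuclear receptors. The letters were searched on both strands, and the motif was chosen after the values of Rxrg and Nr2f2 had been seen.
Rxrg, second start (chr1:167618015-167618264, plus strand): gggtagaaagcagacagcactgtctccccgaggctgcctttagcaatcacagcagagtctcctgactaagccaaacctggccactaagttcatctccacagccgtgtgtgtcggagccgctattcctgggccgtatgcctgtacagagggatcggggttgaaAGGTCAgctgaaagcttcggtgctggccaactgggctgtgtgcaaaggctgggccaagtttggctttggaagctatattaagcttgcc
Rxrg, first start (chr1:167598112-167598361, plus strand): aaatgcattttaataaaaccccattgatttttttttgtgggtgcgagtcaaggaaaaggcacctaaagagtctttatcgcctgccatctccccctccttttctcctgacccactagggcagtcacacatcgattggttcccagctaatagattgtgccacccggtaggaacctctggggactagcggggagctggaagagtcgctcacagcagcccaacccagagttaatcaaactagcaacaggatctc
Nr2f2 (chr7:70366747-70366996, minus strand): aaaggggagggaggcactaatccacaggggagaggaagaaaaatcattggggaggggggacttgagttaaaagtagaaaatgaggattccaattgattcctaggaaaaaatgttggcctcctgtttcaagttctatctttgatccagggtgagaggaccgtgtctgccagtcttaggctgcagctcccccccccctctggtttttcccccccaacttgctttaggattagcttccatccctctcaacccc
Lct (chr1:128328319-128328568, minus strand): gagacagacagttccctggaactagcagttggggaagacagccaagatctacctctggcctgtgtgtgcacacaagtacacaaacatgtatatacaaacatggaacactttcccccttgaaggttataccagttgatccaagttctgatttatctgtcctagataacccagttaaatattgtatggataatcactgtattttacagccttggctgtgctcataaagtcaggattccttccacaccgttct
The second Rxrg window held 1 match and the other windows shown held none. Among windows not shown, that of Oxtr, called ventral, and 1 of those of Gjb1, called dorsal, also held 1 match each. Windows with a match belonged to 12.8% of the tested genes with an entry in the table (10777 genes), 12.4% of the genes called ventral, 12.7% of those called dorsal and 14.0% of all entries. The match is a description of letters and says nothing about binding.

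Imprinted genes, which are expressed from 1 parental copy, were called higher in ventral tissue for 8 of 34 tested and in dorsal tissue for 1 (median 0.16). Together these made up 26.5% of the list, against 6.43% of all genes tested. Dlk1, a ligand of the Delta-Notch family, was at 1.58, 6.91 and 3.64 CPM in the dorsal and 28.7, 29.3 and 31.1 CPM in the ventral samples, a log2 fold change of 2.86 ± 0.31 (edgeR adjusted p = 0.000255). Dlk1 (chr12:109452823-109463336, plus strand) and Dio3 lie at the ends of 1 imprinted domain, 826 kb apart from start to start. The noncoding genes between them had log2 fold changes of 0.20 for Meg3, 0.16 for Rian and -0.05 for Mirg, and none passed the test (edgeR adjusted p = 0.319, 0.463 and 0.878). Plagl1, a zinc finger factor, and Nnat, a small membrane protein, were called higher in ventral tissue. Plagl1 had a mean of 5.55 ± 0.507 CPM (SD, n = 3) in the dorsal and 11.9 ± 0.847 CPM in the ventral samples, and the log2 fold change of Nnat was 1.55 ± 0.26. Exons of both overlap those of a gene on the other strand. The list had 5 ventral calls without dorsal 41, and no dorsal call without dorsal 41, dorsal 71 or ventral 41.

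On the list of receptors for peptides and steroids, which also holds the enzyme gene Hsd11b1, 10 of 24 tested genes were called higher in ventral tissue. Hsd11b1 was the 1 called lower (list median 0.20). The called share was 45.8%, against 6.43% of all genes tested. Oxtr, the oxytocin receptor (chr6:112473683-112489943, minus strand), was at 1.25, 2.05 and 2.09 CPM in the dorsal and 10.2, 7.42 and 9.89 CPM in the ventral samples. The log2 fold change was 2.35 ± 0.26 (edgeR adjusted p = 0.000257). Tacr3, the neurokinin B receptor, was at 0.566, 0.540 and 0.661 CPM against 3.22, 2.1 and 4.51 CPM, and Npy1r, a receptor for neuropeptide Y, had a mean of 11.7 ± 1.77 CPM against 21.9 ± 0.443 CPM (SD, n = 3). Their log2 fold changes were 2.46 ± 0.40 and 0.90 ± 0.14 (edgeR adjusted p = 0.0029 and 0.0027). Hsd11b1, an enzyme that regenerates active glucocorticoid, was lower in ventral tissue by 0.97 ± 0.14 in size (log2 fold change -0.97). The list had 4 ventral calls without dorsal 41 or dorsal 71, 5 without ventral 41 and 6 with the replicate block, and 3 dorsal calls without ventral 50 or with the block.

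Transcription factors of cortical patterning were called 3 times toward ventral and 6 times toward dorsal tissue among 36 tested (median -0.16). This was 25% of the list, against 6.43% of all genes tested. The POU-domain factors Pou3f1, Pou3f2 and Pou3f3, of 1 family, were all called higher in dorsal tissue, with log2 fold changes of -0.86 ± 0.12, -0.82 ± 0.13 and -0.70 ± 0.10 (edgeR adjusted p = 0.000901, 0.00204 and 0.00178). Exons of Pou3f1 overlap those of a gene on the other strand. Pou3f3 was at 157, 132 and 157 CPM in the dorsal and 101, 89.5 and 83.4 CPM in the ventral samples. Neurod6, a factor of pyramidal neurons, had a log2 fold change of -0.44 and lost its call without dorsal 41 (adjusted p = 0.0792), without dorsal 71 (0.0595) and with the replicate block (0.105). Ventral calls on the list were 1 without dorsal 71 or ventral 41, and dorsal calls were 3 without dorsal 71.

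Wnt pathway genes were called in both directions, 6 ventral and 4 dorsal of 37 tested (27%, against 6.43% of all genes tested). The list's median was -0.16. The ligands Wnt7b and Wnt2 differed in opposite directions. Wnt7b was at 77.2, 73.3 and 72.0 CPM in the dorsal and 226, 115 and 200 CPM in the ventral samples (log2 fold change 1.29 ± 0.19, edgeR adjusted p = 0.00178). Wnt2 was at 36.7, 22.1 and 32.8 CPM against 9.91, 9.24 and 12 CPM (log2 fold change -1.56 ± 0.19, edgeR adjusted p = 0.000571). The R-spondins, secreted enhancers of Wnt signalling, also divided: Rspo2 and Rspo3 were higher in ventral tissue by 1.01 and 0.87, and Rspo1 had a log2 fold change of -2.33. Wnt7b and Rspo3 share exon positions with an antisense gene. Without dorsal 41, 3 ventral and 2 dorsal calls were left. With dorsal 49, dorsal 71, ventral 41 or ventral 49 left out, ventral calls were 4, and dorsal calls were 2 to 3.

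Axon guidance genes were called ventral for 6 and dorsal for 10 of 53 tested (30.2%, against 6.43% of all genes tested). The median over this list was -0.01. Ntng1, netrin G1, and Slit2, a repulsive ligand, were called higher in ventral tissue. Ntng1 had a mean of 48.2 ± 1.8 CPM (SD, n = 3) in the dorsal and 114 ± 14.5 CPM in the ventral samples, and Slit2 of 44.8 ± 9.84 and 95.8 ± 12.2 CPM (edgeR adjusted p = 5.86e-05 and 0.00102). Toward dorsal tissue the receptors Unc5b, Epha7 and Robo3 had log2 fold changes of -1.05 ± 0.09, -1.12 ± 0.12 and -1.60 ± 0.24, and Sema7a, a membrane-anchored semaphorin, -1.01 ± 0.12. Unc5b was at 166, 186 and 175 CPM against 90.3, 86.2 and 77.7 CPM. Ventral calls on the list numbered 2 without dorsal 41, 4 without dorsal 71 and 3 without ventral 41. Dorsal calls numbered 6 without dorsal 41.

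The genes of myelin and the oligodendrocytes that make it were lower in ventral tissue as a group. Of 23 tested, 22 (95.7%) were called dorsal and none ventral, where 3.56% of all genes tested were called dorsal. The median log2 fold change was -1.23. The levels of all 23 did not overlap between the groups (12.9% of all tested genes were without overlap and higher in dorsal tissue). Summed over the list, the level was 9818 to 10370 CPM in the dorsal and 3614 to 4746 CPM in the ventral samples. Mbp, the myelin basic protein, was at 3255, 3511 and 3435 CPM in the dorsal and 1243, 1522 and 1235 CPM in the ventral samples, a log2 fold change of -1.35 ± 0.11 (edgeR adjusted p = 4.49e-05). Ugt8a and Fa2h, enzymes that make myelin galactolipids, had log2 fold changes of -1.23 ± 0.09 and -1.18 ± 0.10. Gjb1, connexin 32, was at 74.9, 78.6 and 80.3 CPM in the dorsal and 25.6, 23.7 and 30.1 CPM in the ventral samples, and Mag, a myelin-associated adhesion molecule, had a log2 fold change of -1.33 ± 0.10. Olig2, named after its value was seen, was the 1 member not called (log2 fold change -0.46, adjusted p = 0.0751). The list had 22 dorsal calls with any one of the 6 samples left out and with the replicate block. Of the markers of oligodendrocyte precursor cells, none of 7 tested was called by edgeR, DESeq2 or limma voom, 3 were at an unadjusted p under 0.05 and the median was -0.20; 1 was called dorsal without ventral 41.

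**Figure D3:**
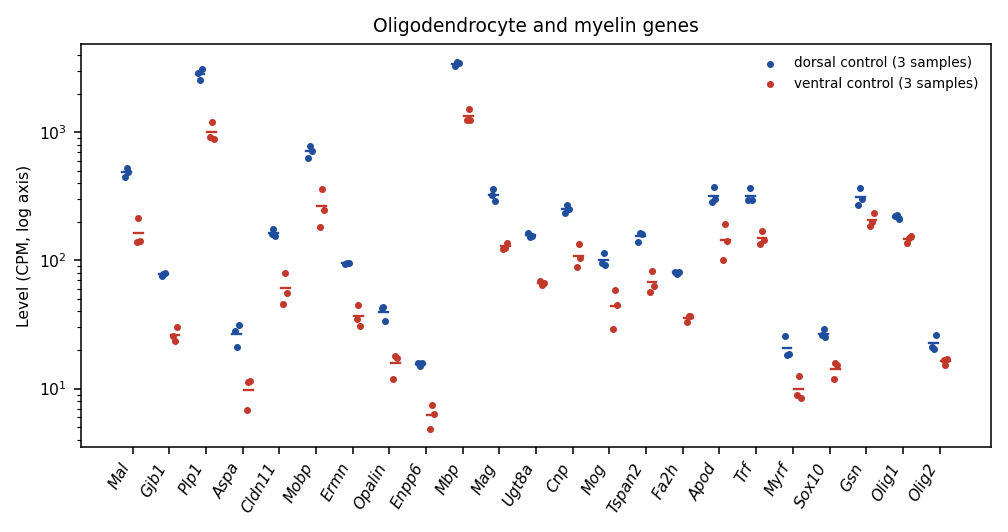
Level of the 23 oligodendrocyte and myelin genes in each control sample, in CPM on a log axis; dots are the 3 dorsal (blue) and 3 ventral (red) samples and bars their means. Dorsal dots lie above ventral dots for every gene, and the gap is smallest at the right, down to a log2 fold change of -0.46 for Olig2.

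Toward dorsal tissue, the largest called differences at 5 CPM or more, predicted genes left out, were of Rasd1, Lct, Mcam, Rspo1, Cyp2j12 and Scn4b. Scn4b, a sodium channel beta subunit (chr9:45138395-45154152, plus strand), was at 30.9, 25 and 29.4 CPM in the dorsal and 6.63, 4.06 and 7.14 CPM in the ventral samples, a log2 fold change of -2.23 ± 0.19 (edgeR adjusted p = 4.66e-05). Rasd1, a small GTPase, was at 53.2, 47.8 and 58.5 CPM against 10.9, 9.94 and 1.13 CPM, and Mcam, a cell adhesion molecule of vessel walls, at 89.7, 80.9 and 81.9 CPM against 24.4, 17.1 and 6.26 CPM. Ventral 50 was the lowest for both. The log2 fold change of Rasd1 was -2.79 ± 0.40 and -2.34 without ventral 50, and that of Mcam -2.35 ± 0.30 and -2.00. Ankub1 and Shisa8, an AMPA receptor-associated membrane protein, had log2 fold changes of -1.91 ± 0.24 and -1.75 ± 0.24. Cyp2j12, a cytochrome P450, was -2.31 ± 0.50 (edgeR adjusted p = 0.0161). It lost its call without dorsal 41 (0.0531), dorsal 71 (0.0936) or ventral 41 (0.0682) and with the replicate block (0.0729), and was -3.27 without ventral 49. Exons of Mcam overlap those of an antisense gene.

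Immediate early genes, which neurons induce on activity, were called dorsal for 5 and ventral for 1 of 23 tested (median -0.44). These calls were 26.1% of the list, against 6.43% of all genes tested. Egr1, a zinc finger factor, was at 580, 731 and 898 CPM in the dorsal and 279, 424 and 332 CPM in the ventral samples (log2 fold change -1.10 ± 0.17, edgeR adjusted p = 0.00229). Arc, a synaptic regulator, and Nr4a1, an orphan nuclear receptor, had log2 fold changes of -1.24 ± 0.22 and -1.23 ± 0.23, and Dusp6, a phosphatase of MAP kinases, -0.67 ± 0.10. Jun was higher in ventral tissue by 0.65 ± 0.09, with exons shared with an antisense gene. The list had 9 dorsal calls without ventral 49. All 15 mitochondrial genome transcripts had lower means in ventral tissue (median -0.38), as did 7731 of all 15701 genes tested. For 4 of the 15 the groups did not overlap (12.9% of all tested genes were without overlap and higher in dorsal tissue). Summed over the list, levels were 39600 to 49310 CPM in the dorsal and 36310 to 43120 CPM in the ventral samples. In controls 2 (13.3%, against 6.43% of all genes tested) were called: mt-Rnr1 and mt-Nd2, whose log2 fold changes in cKO mice were -0.05 and 0.26. Those calls were lost without dorsal 41, dorsal 71, ventral 41 or ventral 50 (adjusted p of 0.116 to 0.222) and with the replicate block (0.281 and 0.29). The list had 5 dorsal calls without dorsal 49, 5 without ventral 49 and 5 with DESeq2. Exons of mt-Nd2 overlap those of a neighbouring transfer RNA gene.

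Several neuronal lists held calls in both directions, while the dentate granule list held 2 ventral and 0 dorsal calls of 12 tested. Called shares were 20% of interneuron markers, 25% of cadherins and protocadherins and 14.8% of potassium channel genes, against 6.43% of all genes tested. Among 25 interneuron markers, 3 were called ventral and 2 dorsal; Nos1, neuronal nitric oxide synthase, had the lowest p, at 24.4, 27.3 and 31.2 CPM against 77.2, 66.5 and 70.1 CPM (log2 fold change 1.37 ± 0.12, edgeR adjusted p = 5.11e-05), and Lamp5 was dorsal (-0.91 ± 0.14). Interneuron calls were 1 ventral without dorsal 49, dorsal 71 or ventral 49, and 2 ventral and 1 dorsal without dorsal 41. Grin3a, an NMDA receptor subunit, was higher in ventral tissue by 1.29 ± 0.11 and Kcng1, a potassium channel subunit, by 1.41 ± 0.13. Chrm3, a muscarinic acetylcholine receptor, was lower in ventral tissue, at 216 ± 25.5 CPM (SD, n = 3) in the dorsal against 107 ± 16.4 CPM. Glutamate receptor genes had 4 ventral and 2 dorsal calls of 33 tested (18.2%), and monoamine and acetylcholine receptor genes 4 and 1 of 26 (19.2%). Calb1, a calcium-binding protein of granule cells, was higher in ventral tissue by 0.99 ± 0.10. The dentate granule list as a whole had 16.7% called and a median of 0.09, and 4 members had lower means in ventral tissue. Necab2 and Cacng5 of the CA2 and CA3 list differed by 1.15 ± 0.13 and -1.32 ± 0.16. That list had 2 ventral and 2 dorsal calls of 10 tested (40%, median -0.04). Of 24 cadherins and protocadherins, which mediate cell adhesion, 5 were called ventral and 1 dorsal (median 0.04). Cdh13, Pcdh8, Pcdh17 and Pcdh19 were among the ventral calls (log2 fold changes 0.50 to 0.92), and the dorsal call was Cdh8 (-0.59 ± 0.12, edgeR adjusted p = 0.012). Cdh8 lost its call without dorsal 71 (adjusted p = 0.0551) and with the replicate block (0.129). The list had 2 dorsal calls without dorsal 49 and 3 without ventral 41, where its median was -0.02. Exons of Nos1, Cdh8, Pcdh8 and Pcdh19 overlap those of a gene on the other strand. The potassium channel list had 5 ventral and 3 dorsal calls of 54 tested, against 3 and 1 without dorsal 41 or dorsal 71, 4 and 5 without dorsal 49 and 4 and 2 without ventral 50.

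Markers of other cell types and of neighbouring tissue gave 0 to 3 calls per list. None of 16 microglia markers was called by edgeR, DESeq2 or limma voom, 4 were at an unadjusted p under 0.05, and 15 of 16 had lower means in ventral tissue (median -0.25). Without ventral 41, edgeR called 1 of them dorsal. None of 17 endothelial and mural markers was called by any of the 3 tools and 0 were at an unadjusted p under 0.05. Of 18 astrocyte markers, 1 was called ventral, Agt, angiotensinogen (0.87 ± 0.13), and 2 dorsal, Gja1 and Cldn10 (16.7%, against 6.43% of all genes tested). The dorsal calls were lost without dorsal 41 or dorsal 71 (for Gja1, edgeR adjusted p = 0.0763 and 0.15). Both were also lost with the edgeR replicate block (adjusted p = 0.135 for Gja1 and 0.25 for Cldn10). Cldn10 further lost its call without ventral 41 (edgeR adjusted p = 0.082) or ventral 50 (0.0627). Ventricle-lining ependymal markers gave 0 of 7 with edgeR, DESeq2 and limma voom, and 1 at an unadjusted p under 0.05; without dorsal 49, 2 were called ventral. Markers of thalamus and habenula, which lie close to the dorsal hippocampus, were called dorsal for 2 of 10 tested and ventral for 1, Ntng1. The called share was 30%, against 6.43% of all genes tested. Means were lower in ventral tissue for 8 of the 10 (median -0.40), and 5 dorsal and 2 ventral differences were at an unadjusted p under 0.05. Dorsal calls were 1 without dorsal 49, dorsal 71 or ventral 41 and 4 with the replicate block. Plekhg1 had a log2 fold change of -1.21 ± 0.19. Slc17a6, the vesicular glutamate transporter VGLUT2, was at 51.8, 62.4 and 57.2 CPM in the dorsal and 27.0, 17.1 and 44.3 CPM in the ventral samples, and lost its call without dorsal 41, 49 or 71 or ventral 41 (adjusted p of 0.0724 to 0.128).

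**Figure D4:**
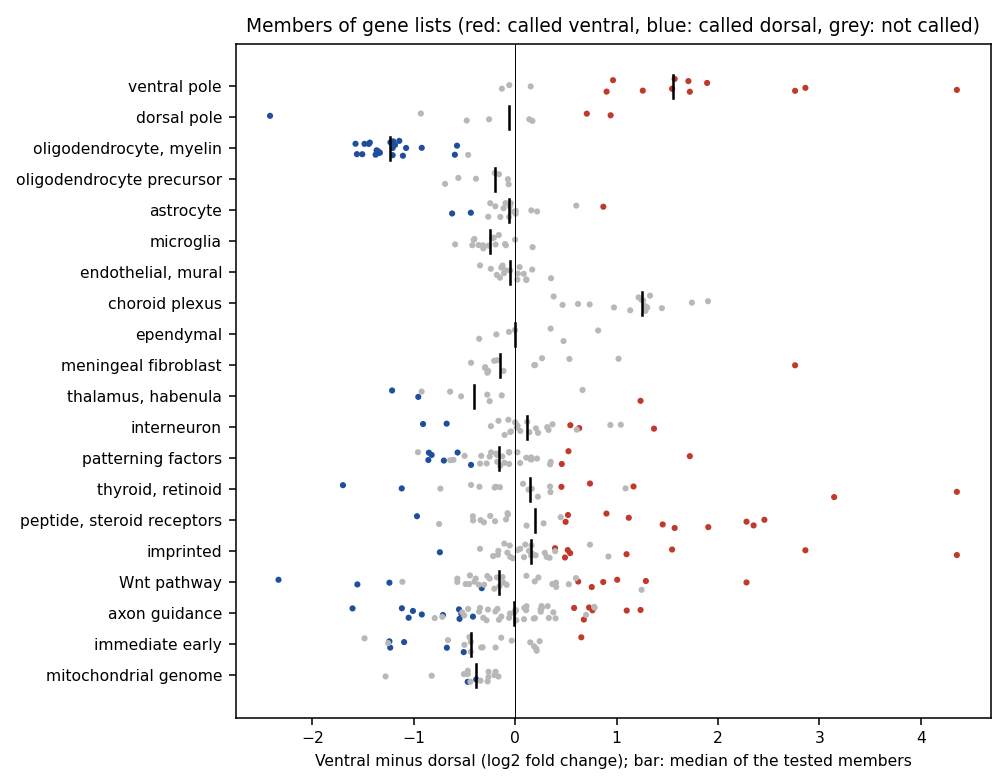
Log2 fold change of ventral over dorsal control hippocampus (horizontal axis) for each tested member of 20 gene lists (rows); red and blue points are genes called higher in ventral or dorsal tissue and black bars list medians. The oligodendrocyte and myelin list has its median at -1.23 and the ventral pole list at 1.56; choroid plexus members lie to the right with none called.

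The 6 cKO samples were not used to call the genes above and give the same region contrast in other libraries. Of the 996 called genes tested there, 942 (94.6%) had the same direction and 555 (55.7%) were also called in that direction; 1 was called the opposite way. Ventral calls were repeated for 227 of 441 and dorsal calls for 328 of 555, against 3.31% and 3.85% of all genes called in those directions in cKO mice. Among genes not called in controls, 61.5% had the same direction and 3.82% were called in cKO mice, where 7.16% of 15357 genes were called. The median log2 fold change of the ventral calls was 0.65 in control and 0.48 in cKO mice, and that of the dorsal calls -0.78 and -0.58; the control values are those on which the genes were selected. No gene passed the test of the difference between genotypes at an adjusted p under 0.05 in edgeR, of 16414 tested (smallest 0.125), although 1307 (7.96%) had an unadjusted p under 0.05. DESeq2 called 34 and limma voom 0. Dio3 differed between the regions by 4.35 in control and 4.52 in cKO mice. Oxtr differed by 2.35 and 0.68, with a difference of 1.67 ± 0.35 between genotypes (unadjusted p = 0.000158, edgeR adjusted p = 0.325), which did not pass. Among dorsal genes named above, Mbp differed by -1.35 in control and -1.37 in cKO mice, and Unc5b by -1.05 and -1.06. Rasd1, Mcam and Dusp6 are given for their low unadjusted p. Rasd1 differed by -2.79 in control and -0.71 in cKO mice, Mcam by -2.35 and -0.64, and Dusp6 by -0.67 and -0.10. Without ventral 50, the control values of Rasd1 and Mcam were -2.34 and -2.00. For Rasd1, Mcam and Dusp6 the unadjusted p for the difference between genotypes was 0.00139, 0.000364 and 0.00148. None of these passed (edgeR adjusted p = 0.391, 0.338 and 0.391).

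**Figure D5:**
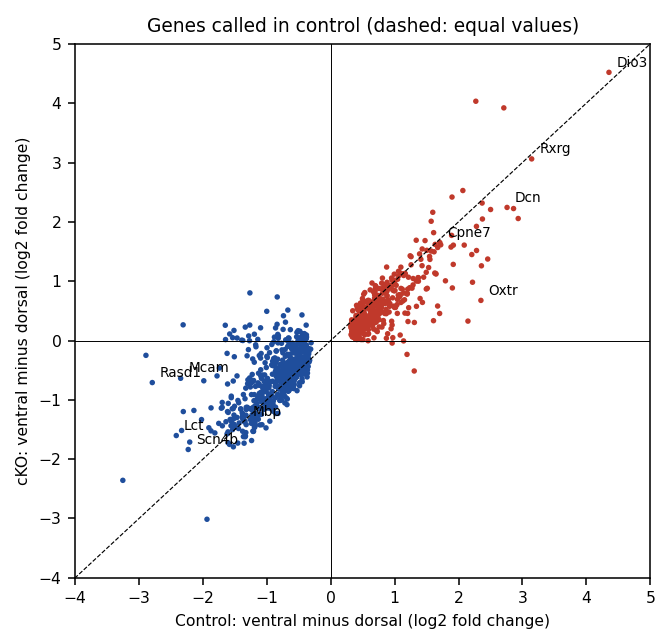
Log2 fold change of ventral over dorsal hippocampus in cKO mice (vertical axis) against that in control mice (horizontal axis), 1 point per gene called in control and tested in cKO; the dashed line marks equal values. Of the 996 genes, 942 share their direction, and Oxtr lies below the line at 2.35 in control and 0.68 in cKO.

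Tet3, the gene deleted in the cKO mice and encoding a DNA dioxygenase, did not pass the test between control regions, at 29.6, 37.2 and 33.7 CPM in the dorsal and 34.7, 30.5 and 23.6 CPM in the ventral samples (log2 fold change -0.17 ± 0.15, edgeR adjusted p = 0.578). Its 3′ tags were at 32.5 to 41.7 CPM in the dorsal and 25.3 to 35.1 CPM in the ventral cKO samples. Where the floxed part lies relative to these tags was not known here, and the level does not check the genotype labels. None of 19 genes of DNA methylation and demethylation was called by edgeR, DESeq2 or limma voom, and 5 were at an unadjusted p under 0.05 (1 ventral, 4 dorsal).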

How the data were processed

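Per the labels, RNA was extracted with Trizol and 500 ng of total RNA went into QuantSeq 3′ libraries. The deposited tables, 1 per region, hold whole-number read counts per gene and sequencing run. Per the submitters' processing notes, cutadapt, HISAT2, featureCounts and edgeR were used with GRCm38; versions, annotation release and strand setting are not given in the sources used here. The 35 CPM columns were not used.

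Counts of 3 runs were summed per sample (18 control columns), and genes in both tables (26787 of 31766) were kept. The tables list 29407 and 29146 genes. After filterByExpr, 15701 genes were tested with edgeR 4.0.16 in R 4.3.3 (quasi-likelihood, TMM scaling, Benjamini-Hochberg at 0.05), on the 6 control samples. Levels are TMM-scaled CPM. Errors of fold changes are SE derived from the test, as the size of the log2 fold change divided by the square root of the F statistic. Their median was 0.162, and they hold both counting error and the spread between samples. The genotype interaction was fitted on all 12 samples. Alternatives used DESeq2 1.42.0, voom of limma 3.58.1, other scalings and filters, single runs, and each sample left out. The script was tested on simulated counts. Nothing states that samples are separate animals, so p-values measure the spread between these samples. No 2 samples of a group agreed within sampling noise (chi-square per gene 4.03 to 9.88).

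Numbers 41 and 49 occur in both regions and were read as 1 mouse each, which the labels do not state; the deviations of these pairs correlated at 0.116 and 0.075, against -0.125 to 0.031 for other pairs. Positions are from GENCODE M21. Members and the 35 gene lists were chosen with earlier results of these data known. Genes were named by rule: Cpne7, Nr2f2, Dio3, Lct, Mbp, Tet3 and Ttr; the 10 largest called differences per direction at 5 CPM or more in the higher group without overlap, leaving out predicted genes; and up to 4 called members per list and direction, or the 2 of lowest p where none was called. Meg3, Rian, Mirg and Olig2 were named after their values were seen. Not every gene that the rule names is reported here.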

Additional observations from a re-analysis of the deposited data

How the results depend on the processing

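Against 451 ventral and 559 dorsal calls, the replicate block in edgeR, whose contrast rests on pairs 41 and 49 alone, gave 262 and 406. A random replicate block in voom gave 537 and 672. Run 1 alone gave 232 and 326, with 77 and 127 at least 2-fold; run 2 alone gave 77 at least 2-fold ventral calls. Leaving out each sample gave 197 to 410 ventral and 284 to 587 dorsal calls, and 82 to 203 and 146 to 216 at least 2-fold. The other tools, scalings, filters and gene sets stayed within 1.5 times. For the genotype interaction, DESeq2 gave 34 calls and leaving out each sample 0 to 4 (4 without dorsal cKO 40, 1 without dorsal cKO 64 and 3 without ventral control 41). The cause of these shifts was not tested. Other scalings moved the median of all genes from 0.006 to between -0.005 and 0.023. Of 135 named genes, 5 that were not called changed sign. Cdh5 (endothelial) was 0.053 with run 1. Hbb-bs and Hbb-bt (red cell markers) ranged from -1.34 to 0.64 and from -1.07 to 0.70 as each sample was left out, positive without dorsal 49 and, for Hbb-bt, without ventral 41 (0.026). Calb2 (mossy cell and newborn neuron list) was -0.13 with run 1 and from -0.235 to 0.714 with a sample left out (negative without dorsal 41, dorsal 71 or ventral 50). Ajap1 (mossy cell list) was 0.013 with library size scaling, 0.04 with the replicate block, 0.03 with run 1, 0.01 with run 2 and from -0.139 to 0.072 with a sample left out (positive without dorsal 41, ventral 49 or ventral 50). Depth limits low genes: Tacr3 was under 1 CPM in all dorsal samples.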
